A study of Mus musculus with 12 samples.

Results

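The genes described here are 10 effectors that neurons switch on when they are active: *Arc*, *Homer1*, *Nptx2*, *Plk2*, *Bdnf*, *Inhba*, *Ptgs2*, *Npas4*, *Sik1* and *Gadd45b*. They were chosen by symbol in the deposited table of identifiers, where they hold 45 of 116816 transcripts and are 10 of 36047 genes. PolyA RNA of cortex tissue was sequenced from mice of 2 ages, 4 and 19 months, with 3 libraries of each genotype (WT or *Gde2*KO) at each age. *Gde2*KO animals carry a germline deletion of *Gde2* (*Gde2*-/-), the gene now named *Gdpd5*, in every cell type throughout life, and no group was treated. The deposited values are of RNA and do not measure GDE2 protein. GDE2 is a membrane enzyme that releases proteins from the cell surface by cutting their glycosylphosphatidylinositol anchor. The comparisons ask whether loss of GDE2 was accompanied by a different level of these genes at either age, and whether the genotype difference changed with age.

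Calcium enters an active neuron through synaptic receptors and voltage-gated channels. It starts signals that act on transcription factors such as CREB, SRF and MEF2, already bound at many genes of this response. A first wave of transcription factors follows within minutes, and effectors that change the synapse, the dendrite or gene regulation follow with it or after it. Because their transcripts are made and lost quickly, their level in the cortex can differ widely between animals of the same group. In bulk tissue, fewer cells that express a gene and less of its RNA per cell cannot be told apart.

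All values are relative to the deposited scaling and are called normalized counts. The 4-month libraries held an estimated 46434270 to 59728494 reads and the 19-month libraries 3707928 to 44604721, with 19-month WT library A (6734475) and *Gde2*KO library A (3707928) far below the others. *Gdpd5* had 684, 702 and 1199 normalized counts in WT and 417, 585 and 403 in *Gde2*KO at 4 months. At 19 months it had 952 to 1129 in WT and 441 to 560 in *Gde2*KO. The genotypes did not overlap at either age, and RNA of the gene was still detected in *Gde2*KO. All 10 markers of cortical neurons were detected in every group, and their sum spanned 262024 to 358298 normalized counts over the 12 libraries. Within the 4-month WT group 2 libraries stood apart in the markers of neighbouring regions. WT replicates 1 and 2 had 14422 and 13273 summed normalized counts of 10 hippocampal markers, where WT replicate 3 had 1233 and *Gde2*KO had 1210 to 2133. They had 3444 and 2726 of 9 striatal markers, where WT replicate 3 had 42955 and *Gde2*KO had 23656 to 58956. Of the single markers, 9 of 10 hippocampal genes were higher and 9 of 9 striatal genes, 7 of 10 cortical neuron genes, 5 of 5 oligodendrocyte genes, 4 of 5 microglial genes and 4 of 5 endothelial genes were lower in these 2 libraries than in the other 4. Of the 5 astrocyte genes 2 were higher (*Gfap* and *Gja1*) and 1 was lower. No marker of these lists was at 0 in every library of a group. Because these 2 libraries are most of the 4-month WT group, the genotype and age differences of the members are given with and without them.

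The promoters were searched for the site that CREB binds. RefSeq promoter windows on GRCm38.p6, from 250 bases before to 50 bases after a transcript start, were found for 7 of the 10 genes, 14 windows in all. The site was searched in both directions as its 5-base core TGACG and as the full palindrome TGACGTCA, which contains the core once on each strand. The core was present in 5 of the 14 windows, of *Npas4*, *Homer1*, *Plk2*, *Bdnf* and *Ptgs2*, and in 20.8% of all 32851 windows. The full palindrome was present in 1 window, of *Plk2*, and in 1.79% of all. No member window held the AP-1 site (TGACTCA or TGAGTCA), found in 5.20% of all windows, or a CArG box, the site of SRF, found in 1.63% of all. *Arc*, *Nptx2* and *Sik1* had no window. The stretches around the sites of 3 of these genes are shown, chosen after their levels were seen. In the 4-month WT libraries *Homer1* was low in replicates 1 and 2, while *Plk2* and *Bdnf* were highest in replicate 1. *Ptgs2*, whose stretch is not shown, was also highest in replicate 1. The stretch of *Npas4*, 169 to 179 bases before the RefSeq start, lies in the first exon of a longer transcript of the annotation. Capitals mark the core, read on either strand.
Homer1, chr13:93303676-93303756, plus strand: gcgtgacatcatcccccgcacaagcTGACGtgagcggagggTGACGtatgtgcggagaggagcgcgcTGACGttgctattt
Bdnf, first exon 4, chr2:109692376-109692430, plus strand: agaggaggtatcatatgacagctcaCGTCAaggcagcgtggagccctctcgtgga
Plk2, chr13:110394957-110395014, plus strand: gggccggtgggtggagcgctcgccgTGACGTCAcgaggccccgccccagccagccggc
The *Homer1* window held 3 cores, as did that of *Plk2*, whose stretch shows 2 of them, and 1.03% of all windows held 3 or more. A match of letters is not evidence that a factor binds there.

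The levels of the 10 genes were compared with each other only in the deposited TPM, which account for transcript length. In WT at 4 months *Plk2* had the highest mean, with 171 ± 39.2 TPM (SD, n = 3), before *Homer1* with 98.5 ± 32.7 and *Arc* with 85.7 ± 62.9. The spread of *Arc* overlapped those of both other genes, and the order rests on WT replicates 1 and 2: in WT replicate 3 *Arc* (158 TPM) was above *Plk2* and *Homer1* (136 each). In *Gde2*KO at 4 months *Arc* came first with 249 ± 33.8 TPM, above *Plk2* with 174 ± 2.14 and *Homer1* with 128 ± 9.75. At 19 months *Arc* had 147 ± 68.3 TPM in WT and 170 ± 35.7 in *Gde2*KO, and its spread overlapped that of *Plk2* in both genotypes (144 ± 9.57 and 153 ± 6.46). *Nptx2*, *Gadd45b* and *Bdnf* lay in the middle, between 13.1 and 58.9 TPM as group means. *Ptgs2*, *Npas4*, *Sik1* and *Inhba* had group means between 4.90 and 17.9 TPM, below the other members in every group but 4-month *Gde2*KO, where *Npas4* (17.9 ± 1.39) was above *Bdnf* (16.0 ± 4.58).

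Among the members that act at the synapse, *Arc*, *Homer1*, *Nptx2* and *Plk2*, none was called by genotype at 4 months. *Arc* encodes a capsid-like protein that drives AMPA receptors out of the synapse, and lies at chr15:74669083-74672570 on the minus strand of GRCm38. *Arc* had 2331, 2971 and 8405 normalized counts in WT replicates 1 to 3 and 15494, 11353 and 14713 in *Gde2*KO replicates 1 to 3. The groups did not overlap, but WT replicate 3 lay closer to the lowest *Gde2*KO library than to the other WT libraries on the linear scale. The means were 4569 ± 3337 and 13853 ± 2200 (SD, n = 3). Each limma p here sets a difference against the spread estimated from the libraries in that fit. The log2 fold change was 1.82 with a standard error of 0.43 (limma, adjusted p = 0.463). Without WT replicates 1 and 2 it was 0.71 ± 0.28 (SE) and was not called, and without WT replicate 3 it was 2.38 ± 0.19 (limma, adjusted p = 0.000656).

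*Homer1* (chr13:93299635-93405129, plus strand) encodes scaffolds that link metabotropic glutamate receptors to Shank proteins and to calcium stores. It had 4599, 5110 and 8537 normalized counts in WT and 8987, 8082 and 8247 in *Gde2*KO at 4 months. WT replicate 3 lay within the *Gde2*KO range, and only WT replicates 1 and 2 were low. The log2 fold change of 0.53 ± 0.23 (SE, limma, adjusted p = 0.463) was -0.018 ± 0.25 without those 2 libraries. The gene overlaps 2 provisional genes on its own strand, *Gm47075* and *Gm47088*, whose reads may be shared with it.

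*Nptx2* (chr5:144545902-144557478, plus strand) encodes a secreted pentraxin that gathers AMPA receptors, mostly on the dendrites of inhibitory interneurons. It had 1822, 948 and 1949 normalized counts in WT and 2942, 2183 and 2843 in *Gde2*KO at 4 months, without overlap. WT replicate 2 was the low library here, and WT replicate 1 was close to replicate 3. Its log2 fold change was 0.81 ± 0.28 (SE, limma, adjusted p = 0.463), and 0.43 ± 0.27 without WT replicates 1 and 2.

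*Plk2* (chr13:110395046-110400844, plus strand) encodes a kinase that lowers synaptic strength after prolonged activity. It had 9885, 7668 and 6299 normalized counts in WT and 8536, 8145 and 8696 in *Gde2*KO at 4 months. Here WT replicate 1 was the highest of the 6 libraries and WT replicate 3 the lowest, and the groups overlapped. The log2 fold change was 0.11 ± 0.17 (SE, limma, adjusted p = 0.760).

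The secreted and signalling members did not move together. *Bdnf* (chr2:109674700-109727007, plus strand), the neurotrophin ligand of TrkB, had 2035, 1464 and 798 normalized counts in WT and 1235, 811 and 1581 in *Gde2*KO at 4 months. *Ptgs2* (chr1:150100031-150108227, plus strand), the cyclooxygenase that makes prostaglandins from arachidonic acid, had 1207, 687 and 322 in WT and 542, 445 and 693 in *Gde2*KO. In both genes WT replicate 1 was the highest and WT replicate 3 the lowest of all 6 libraries, the reverse of their order in *Arc*. Their log2 fold changes were -0.20 ± 0.36 for *Bdnf* and -0.23 ± 0.43 for *Ptgs2* (SE, limma, neither called), and without WT replicates 1 and 2 they turned to 0.55 ± 0.36 and 0.77 ± 0.31. *Bdnf* overlaps the antisense gene *Gm45346*, and the library kit does not record strand, so reads of the shared stretch cannot be told apart.

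*Inhba* (chr13:16011851-16031621, plus strand) encodes the subunit that pairs to form activin A, a ligand of the TGF-β family. It had 457, 280 and 476 normalized counts in WT and 509, 585 and 505 in *Gde2*KO at 4 months, without overlap but with WT replicates 1 and 3 close below the *Gde2*KO libraries. The log2 fold change was 0.43 ± 0.22 (SE, limma, adjusted p = 0.476), and 0.16 ± 0.26 without WT replicates 1 and 2. The pseudogene *B230303A05Rik* and the antisense gene *Gm48444* overlap it on the other strand.

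Among the members that act in the nucleus or on transcription, *Npas4* (chr19:4984355-4990316, minus strand) encodes a neuronal transcription factor that shapes the balance of inhibitory and excitatory synapses. It had 199, 273 and 790 normalized counts in WT and 1143, 1238 and 1167 in *Gde2*KO at 4 months. The *Gde2*KO libraries were close to each other and above all WT libraries, of which replicate 3 was the nearest. The means were 421 ± 322 and 1183 ± 49.3 (SD, n = 3), and the log2 difference was 1.75 ± 0.44 (SE, limma, adjusted p = 0.463). It was 0.58 ± 0.24 without WT replicates 1 and 2 and 2.34 ± 0.18 without WT replicate 3.

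*Sik1* (chr17:31844250-31855804, minus strand) encodes a kinase that restrains the CREB coactivators of the CRTC family. It had 352, 447 and 667 normalized counts in WT and 1248, 1012 and 849 in *Gde2*KO at 4 months, without overlap. The log2 fold change was 1.12 ± 0.25 (SE, limma, adjusted p = 0.463), and 0.62 ± 0.29 without WT replicates 1 and 2. *Gadd45b* (chr10:80930073-80932204, plus strand), linked to active DNA demethylation at activity-induced promoters, had 525, 440 and 610 normalized counts in WT and 816, 630 and 1321 in *Gde2*KO. *Gde2*KO replicate 3 was far above the other *Gde2*KO libraries, and replicate 2 was just above WT replicate 3. Its log2 fold change was 0.76 ± 0.27 (SE, limma, adjusted p = 0.463), and 0.53 ± 0.38 without WT replicates 1 and 2.

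**Figure D1:**
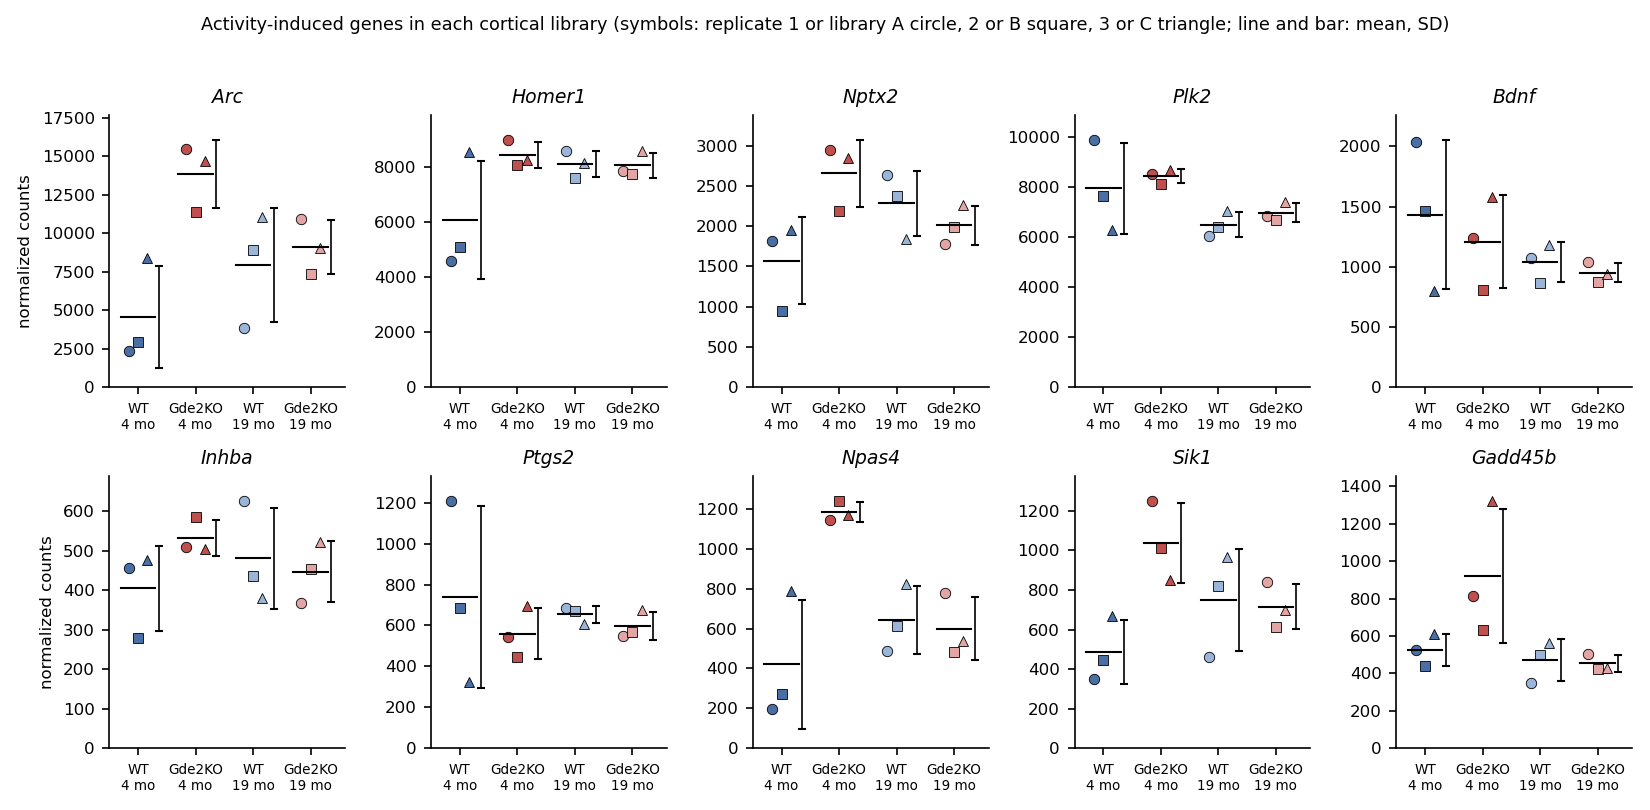
Normalized counts of the 10 genes in each library of the 4 groups, with the mean and SD of 3 libraries. At 4 months the *Arc*, *Npas4* and *Homer1* points of WT replicates 1 and 2 (circle and square) sit at the bottom of their panels and those of WT replicate 3 (triangle) above them, while in *Bdnf*, *Ptgs2* and *Plk2* the order of the WT points is turned round.

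Over the 10 genes at 4 months, 0 were called by genotype with limma at an adjusted p under 0.1 and a log2 fold change above 0.72 in size, where 24 of 19035 genes were called (0.126%). At an unadjusted p under 0.05 there were 6, *Arc*, *Npas4*, *Sik1*, *Nptx2*, *Gadd45b* and *Homer1*, against 10.6% of all genes. The libraries did not overlap for 6 genes, all higher in *Gde2*KO (*Arc*, *Gadd45b*, *Inhba*, *Npas4*, *Nptx2* and *Sik1*), where 11.1% of all genes were higher and 4.26% lower without overlap. In all, 8 of 10 members had a positive log2 fold change, with a median of 0.64, beside 63.2% and a median of 0.11 over all genes tested. After scaling by a trimmed mean of M values (TMM) the median of all genes was 0.017, and the genotypes then overlapped in *Inhba*.

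These counts depended on which WT libraries were kept. Without WT replicate 3, 5 members were called higher in *Gde2*KO (*Arc*, *Npas4*, *Sik1*, *Nptx2* and *Homer1*), where 5.63% of all genes were called higher. With array weights, which let limma count variable libraries less, 7 members were called higher, where 8.41% of all genes were. Without WT replicates 1 and 2, 0 were called and 3 had an unadjusted p under 0.05 (*Arc*, *Ptgs2* and *Npas4*), where 1.25% of all genes did and 14 of 19147 were called. The single remaining WT library, assumed to vary like the *Gde2*KO libraries, lay below all 3 *Gde2*KO libraries in 9 of the 10 genes, all but *Homer1*, and in 29.1% of all genes. WT replicates 1 and 2 are also the libraries with high hippocampal and low striatal markers, and the part of that difference in the levels of these genes was not tested.

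**Figure D2:**
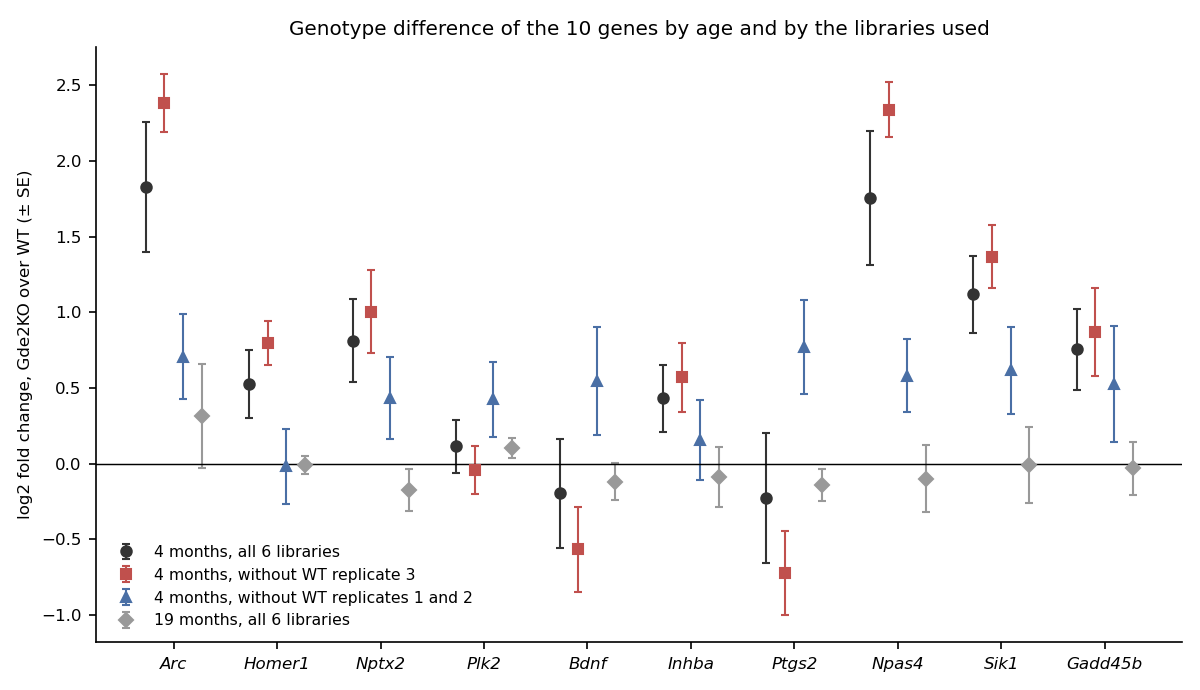
Log2 fold change of *Gde2*KO over WT (± SE, limma) for each gene at 4 months with all libraries, without WT replicate 3 and without WT replicates 1 and 2, and at 19 months. Leaving out WT replicates 1 and 2 moved *Arc* and *Npas4* from 1.82 and 1.75 to 0.71 and 0.58 and turned *Bdnf* and *Ptgs2* from below 0 to above 0, while the 19-month values lie between -0.17 and 0.31.

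At 19 months the genotypes could not be separated in any of the 10 genes. *Arc* had 3839, 8934 and 11086 normalized counts in WT libraries A, B and C and 10939, 7377 and 9020 in *Gde2*KO libraries A, B and C. The lowest and the highest of the 6 values were both WT. *Npas4* had 489, 615 and 824 in WT and 780, 485 and 535 in *Gde2*KO, and *Sik1* had 461, 822 and 964 in WT and 838, 612 and 698 in *Gde2*KO. In these genes and in *Gadd45b* (349, 500 and 565 in WT and 506, 425 and 431 in *Gde2*KO) WT library A was low and *Gde2*KO library A was the highest of its group, and these are the libraries of lowest depth. They rest on few reads, an estimated 105 and 94 for *Npas4*, 99 and 101 for *Sik1* and 75 and 61 for *Gadd45b*. WT library A also held the most RNA of the 5 blood genes, 32714 summed normalized counts where the other 5 libraries of its age held 6105 to 14777, and its part in these values was not tested.

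*Homer1* and *Plk2* had the smallest standard errors at 19 months. *Homer1* had 8577, 7611 and 8159 normalized counts in WT and 7881, 7748 and 8573 in *Gde2*KO. *Plk2* had 6052, 6425 and 7049 in WT and 6850, 6683 and 7411 in *Gde2*KO. The groups overlapped in both, as they did in *Bdnf* (862 to 1184 and 878 to 1037), *Nptx2* (1842 to 2632 and 1783 to 2263), *Ptgs2* (608 to 685 and 547 to 676) and *Inhba* (380 to 625 and 367 to 522). With limma 0 members were called at 19 months, where 0.0969% of all genes were, and 0 had an unadjusted p under 0.05, where 6.91% of all genes did. The libraries overlapped for all 10 members, where 5.85% of all genes were higher and 8.32% lower in *Gde2*KO without overlap. The log2 fold changes lay between -0.17 ± 0.14 for *Nptx2* and 0.31 ± 0.34 for *Arc* (SE), with standard errors of 0.06 for *Homer1* and 0.07 for *Plk2*. Without the 2 libraries of low depth both ends of this range turned, to 0.020 ± 0.13 for *Nptx2* and -0.29 ± 0.13 for *Arc*. Then 0 members were called and 3 had an unadjusted p under 0.05, all lower in *Gde2*KO, where 5.98% of all genes had one. These were *Sik1* at -0.45 ± 0.11, *Npas4* at -0.48 ± 0.15 and *Gadd45b* at -0.31 ± 0.10 (SE). Hippocampal markers summed to 885 to 1118 in WT and 1506 to 2339 in *Gde2*KO at this age, a smaller gap than at 4 months and in the other direction.

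**Figure D3:**
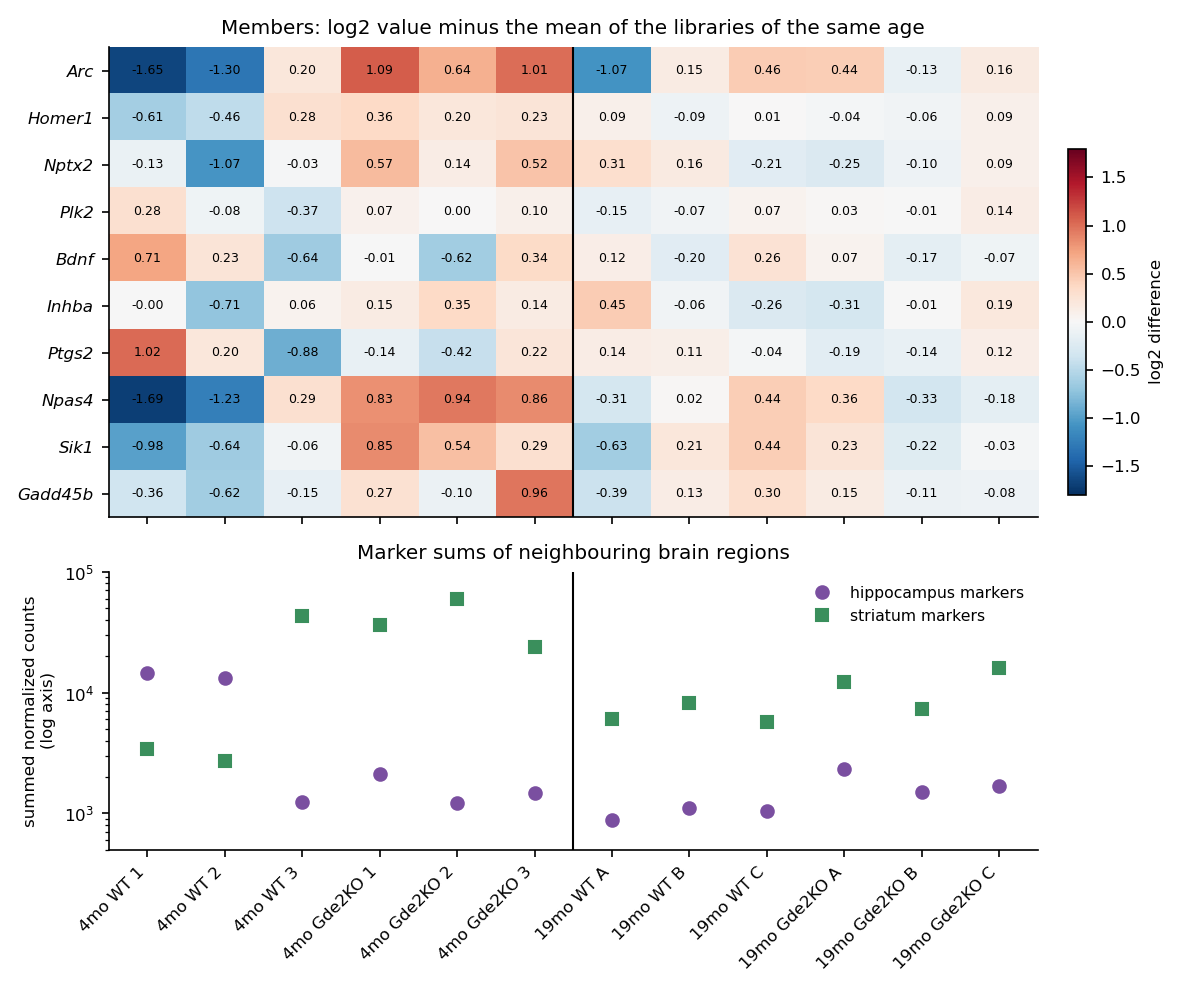
Top, log2 value of each gene in each library minus the mean of the 6 libraries of the same age. Bottom, summed normalized counts of hippocampal and striatal markers in the same libraries on a log axis. The columns of 4-month WT replicates 1 and 2 hold the lowest values of *Arc* (-1.65 and -1.30) and *Npas4* (-1.69 and -1.23), above the libraries in which the hippocampal sum exceeds the striatal sum.

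The genotype difference itself was compared between the ages over all 12 libraries. With limma 0 members were called for the interaction of genotype and age, where 9 of 18731 genes were (0.048%), and 5 had an unadjusted p under 0.05 (*Npas4*, *Nptx2*, *Sik1*, *Arc* and *Gadd45b*), where 12.9% of all genes did. The median of all genes was -0.15 in this contrast and -0.037 after TMM scaling, so the members are given relative to the first median. On that log2 scale the difference at 19 months minus that at 4 months was -1.70 for *Npas4*, -1.36 for *Arc*, -0.98 for *Sik1*, -0.84 for *Nptx2* and -0.64 for *Gadd45b*. In the same order, the adjusted p of limma was 0.368, 0.372, 0.368, 0.368 and 0.384. These p-values belong to the fitted values before that median was taken off. Without 4-month WT replicates 1 and 2 the fitted values, before that median was taken off, were -0.68 for *Npas4* and -0.40 for *Arc* where they had been -1.85 and -1.51. Without WT replicate 3 they were -2.44 and -2.07, and 5 members were called, all lower, where 7.3% of all genes were called lower. With array weights 7 members were called lower, where 32.1% of all genes were.

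Age was compared within each genotype, between different animals whose libraries may also be different batches, and these cannot be told apart. Marker sums also differed between the ages in *Gde2*KO. Striatal markers summed to 23656 to 58956 normalized counts at 4 months and 7328 to 16042 at 19 months. Oligodendrocyte markers summed to 128201 to 142570 and 87846 to 114322. The ages overlapped in the sums of all other marker lists. The part of these differences in the age changes of the members was not tested. In *Gde2*KO 2 members were called lower at 19 than at 4 months, where 9.32% of all genes were called lower. *Gadd45b* fell from 816, 630 and 1321 to 506, 425 and 431 normalized counts, a log2 change of -0.96 ± 0.25 (SE, limma, adjusted p = 0.0224), or -0.75 relative to the median of all genes (-0.21). *Npas4* fell from 1143, 1238 and 1167 to 780, 485 and 535, a change of -1.01 ± 0.40 (SE, limma, adjusted p = 0.0849), or -0.80 relative to that median. In this contrast 37.5% of all genes had an unadjusted p under 0.05 (limma). After TMM scaling *Gadd45b* remained called (-0.79, adjusted p = 0.0330) and *Npas4* did not (-0.85, adjusted p = 0.153). Without 4-month *Gde2*KO replicate 3, 0 were called, with *Gadd45b* at -0.66 (limma, adjusted p = 0.0642) under the fold threshold. *Npas4* alone was lost without 4-month *Gde2*KO replicate 1 or 2 (adjusted p = 0.150 and 0.142), 19-month *Gde2*KO library B or C (0.208 and 0.176) or 19-month WT library B (0.109). Both genes were called without 4-month WT replicates 1 and 2 (adjusted p = 0.0272 and 0.0122), although WT libraries enter this contrast only through the shared estimate of the spread.

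Marker sums differed between the ages in WT as well. At 4 and 19 months cortical neuron markers summed to 284789 to 316411 and 320132 to 351613 normalized counts. Astrocyte markers summed to 30052 to 52609 and 22277 to 24013. The ages did not overlap in oligodendrocyte, hippocampal, endothelial and choroid plexus markers either, and overlapped in striatal, microglial and blood markers. The part of these differences in the age changes of the members was not tested. In WT 0 members were called by age with limma, where 13.7% of all genes were called, and 2 had an unadjusted p under 0.05, where 34.5% of all genes did. *Homer1* had 4599 to 8537 normalized counts at 4 months and 7611 to 8577 at 19 months, a log2 change of 0.47 ± 0.18 (SE, limma, adjusted p = 0.0850), which was under the fold threshold. *Nptx2* had 948 to 1949 at 4 months and 1842 to 2632 at 19 months, a log2 change of 0.59 ± 0.24 (SE, limma, adjusted p = 0.105). *Arc* and *Npas4* had log2 changes of 0.90 ± 0.44 and 0.84 ± 0.40 (SE). Without 4-month WT replicates 1 and 2 the changes of *Homer1*, *Arc* and *Npas4* turned to -0.075, -0.21 and -0.33, and 1 member was called, *Ptgs2*, with 322 normalized counts in the remaining 4-month WT library and 608 to 685 at 19 months, where 1.34% of all genes were called higher. The remaining 4-month WT library had 42955 summed normalized counts of striatal markers, where the 19-month WT libraries had 5663 to 8145. Without 4-month WT replicate 3, 6 members were called, where 16.7% of all genes were: *Homer1*, *Arc*, *Npas4*, *Nptx2* and *Sik1* higher and *Bdnf* lower at 19 months. Without 19-month WT library A *Arc* and *Sik1* were called higher, where 4.44% of all genes were, and without library C *Nptx2* was, where 5.31% were.

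*Homer1* makes transcripts of several lengths, which bear on the same question because its short forms include activity-induced ones. Full-length Homer1 proteins pair through a coiled coil, and Homer1a, which ends early, lacks it and uncouples the scaffold. The annotation holds 12 *Homer1* transcripts, of which 4 coding ones end before the last exon of the long form. Homer1a (ENSMUST00000102752.9) reads through the splice site after exon 5, a pair of transcripts (ENSMUST00000109492.8 and ENSMUST00000109493.8) ends in an alternative exon of the intron that follows exon 5, and ENSMUST00000109494.7 ends after exon 6. Shares are given as percent of the gene's TPM, and an exact permutation test of 3 against 3 cannot go below p = 0.1. That p is reached whenever the libraries do not overlap, which has a chance of 0.1 in each test if the genotypes do not differ. Each transcript class of *Homer1* and each first exon of *Bdnf* was tested at both ages, without correction for their number. Some cases without overlap are therefore expected by chance.

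At 4 months the 4 short transcripts together held 40.4%, 44.2% and 49.4% of *Homer1* TPM in WT replicates 1 to 3 and 49.8%, 47.8% and 43.5% in *Gde2*KO replicates 1 to 3. The groups overlapped, with a difference of 2.35 percentage points (exact two-sided permutation p = 0.6). This sum also counts the transcript ending after exon 6, with mean shares of 27.3% in WT and 20.2% in *Gde2*KO. Whether each of the 4 is induced by activity was not tested, so the sum is not a measure of activity-induced forms alone. Homer1a alone held 10.7%, 13.5% and 17.7% in WT and 19.3%, 15.3% and 18.7% in *Gde2*KO. WT replicates 1 and 2 were the lowest and WT replicate 3 lay within the *Gde2*KO range (exact two-sided permutation p = 0.2). In TPM, Homer1a was at 8.05, 11.3 and 24.1 in WT and 26.1, 20.3 and 21.9 in *Gde2*KO.

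The pair that ends in the alternative exon was set apart after the transcripts had been seen. It held 3.54%, 3.23% and 3.39% of *Homer1* TPM in WT and 7.44%, 9.40% and 10.3% in *Gde2*KO at 4 months. The 3 WT libraries were close to each other, replicate 3 included, and all lay below the *Gde2*KO libraries, a difference of 5.66 points (exact two-sided permutation p = 0.1, which is the smallest here). In TPM the means of the pair were 3.33 in WT and 11.5 in *Gde2*KO, also without overlap. Measured as a share of normalized counts the difference was 2.69 points, also without overlap. The transcript ending after exon 6 held 26.2%, 27.5% and 28.3% in WT and 23.0%, 23.1% and 14.5% in *Gde2*KO, again without overlap but the other way, while its TPM overlapped.

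At 19 months the genotypes overlapped in every class. The pair held 6.12%, 7.79% and 9.38% in WT and 12.7%, 6.22% and 5.45% in *Gde2*KO, where the highest value came from library A, the shallowest. Homer1a held 20.3% to 24.7% in WT and 18.8% to 22.8% in *Gde2*KO. The short transcripts together held 54.2% to 56.9% in the 6 libraries of 19 months, above the 40.4% to 49.8% of the 6 libraries of 4 months, a difference between ages that was not tested. In the test of transcript usage over all transcripts of a gene (limma's diffSplice), *Homer1* had an unadjusted p of 0.0299 and an adjusted p of 0.326 at 4 months, and was not called at either age.

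**Figure D4:**
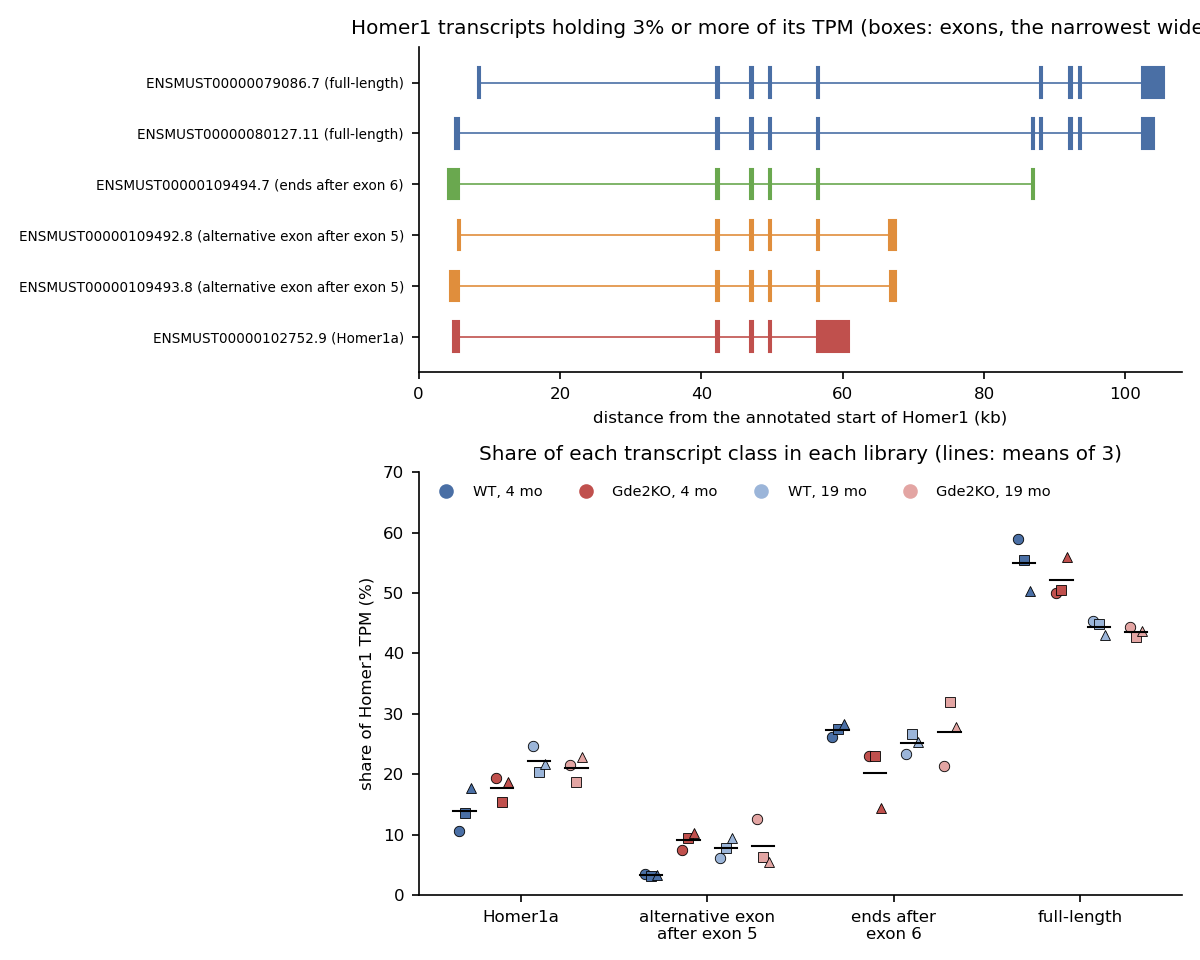
Top, exons of the *Homer1* transcripts by distance from the annotated start of the gene (narrow exons widened to be seen). Bottom, share of each transcript class in *Homer1* TPM in each library, with group means as lines. At 4 months the pair with the alternative exon after exon 5 lies at 3.23% to 3.54% in WT and 7.44% to 10.3% in *Gde2*KO, and at 19 months the groups overlap.

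*Bdnf* transcripts share 1 coding exon and differ in the first exon, each with its own promoter, and the promoter of the exon numbered 4 is the best known for its response to calcium. The 11 transcripts fell into 8 groups by first exon, numbered here in genome order. At 4 months first exon 4 (ENSMUST00000111050.9) held 21.3%, 24.9% and 27.5% of *Bdnf* TPM in WT, and in *Gde2*KO its 3 shares lay close together at a mean of 30.5% ± 0.546 (SD, n = 3) and reached 31.1%. The shares did not overlap and differed by 5.97 points (exact two-sided permutation p = 0.1, which is the smallest here). The level of this transcript did overlap, at 3.03 to 5.99 TPM in WT and 3.36 to 6.33 in *Gde2*KO (exact two-sided permutation p = 0.8).

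First exon 6 (ENSMUST00000111045.8) was the part of *Bdnf* in which the WT libraries differed most. It was at 11.9 and 11.1 TPM in WT replicates 1 and 2, at 3.48 in WT replicate 3 and at 5.02, 4.39 and 5.62 in *Gde2*KO. The 2 WT libraries with high hippocampal markers were thus above the other 4 libraries. At 19 months this exon held 24.5%, 29.4% and 29.6% in WT and 31.3%, 38.1% and 33.4% in *Gde2*KO, without overlap (6.42 points, exact two-sided permutation p = 0.1, which is the smallest here), and its TPM overlapped. First exon 4 held 28.7% to 45.7% in WT and 33.2% to 45.6% in *Gde2*KO at 19 months, with both highest values in the libraries A. The share of first exon 3, between 0% and 3.94% over all libraries, did not overlap at 19 months either and rests on means of 28.3 normalized counts in WT and 8.38 in *Gde2*KO. In diffSplice *Bdnf* had adjusted p-values of 0.906 at 4 months and 0.988 at 19 months.

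**Figure D5:**
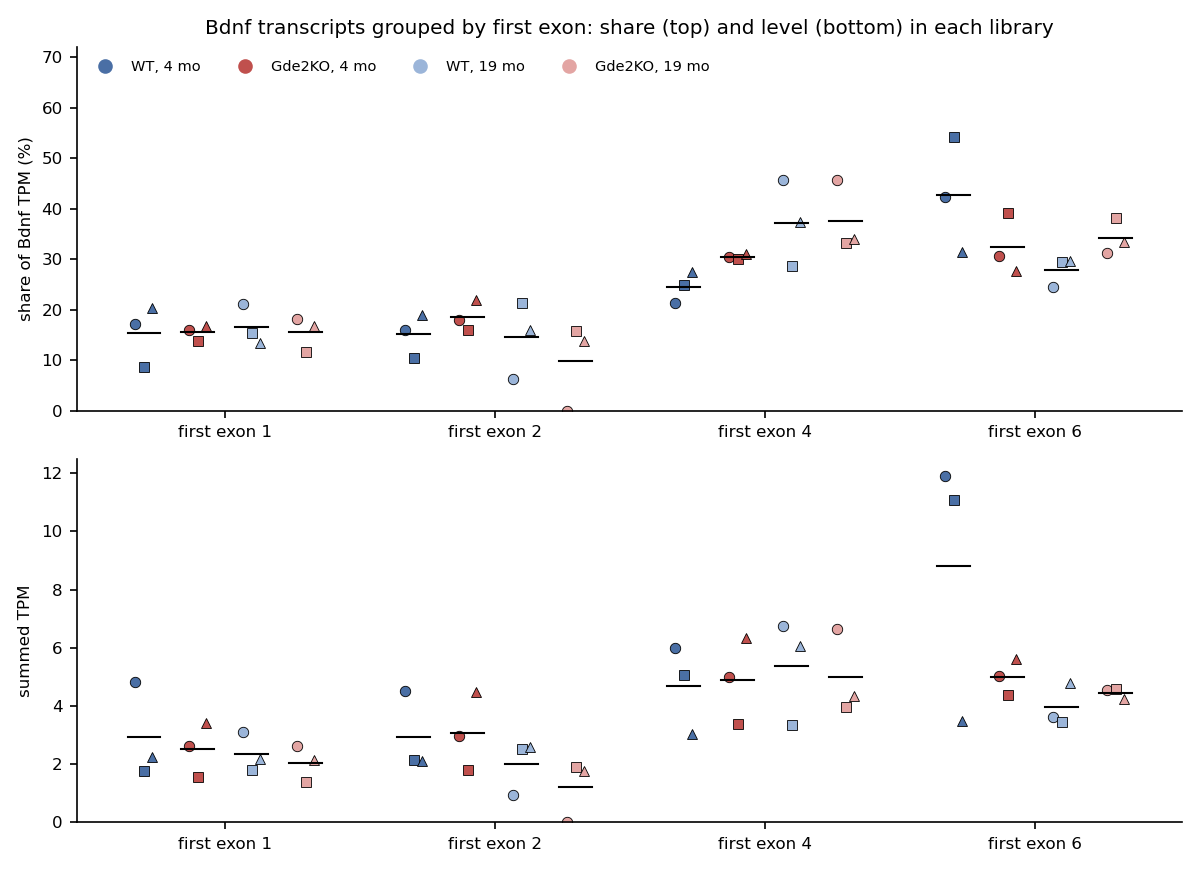
Share of *Bdnf* TPM (top) and summed TPM (bottom) of transcripts grouped by first exon, in each library with group means as lines. In first exon 6 the points of 4-month WT replicates 1 and 2 stand at 11.9 and 11.1 TPM, above all other libraries.

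Over the members with at least 2 transcripts that could be tested, 0 of 8 were called for transcript usage at 4 months, where 0.997% of genes were called. Of these 8, 1 (*Homer1*) had an unadjusted p under 0.05, where 1538 of 12235 genes did. At 19 months 0 of 7 were called, where 0.171% of genes were. An unadjusted p under 0.05 was found for 0 of the 7 and for 625 of 12253 genes.

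Genes of the same response and partners of the members were read from lists that, like the members, were written with results of these data known. Of 17 early transcription factors of the activity response, 15 had a positive log2 fold change at 4 months and 13 an unadjusted p under 0.05, with a median of 1.20. *Nr4a1*, an orphan nuclear receptor, and *Btg2*, an antiproliferative coregulator, were called. *Nr4a1* rose from 1485, 2044 and 2593 normalized counts in WT to 6696, 5623 and 5789 in *Gde2*KO, a log2 fold change of 1.60 (limma, adjusted p = 0.0626). *Btg2* rose from 371, 491 and 650 to 1712, 1390 and 2036, a log2 fold change of 1.78 (limma, adjusted p = 0.0626). In both genes WT replicate 3 was the highest WT library and lay below all *Gde2*KO libraries. Against WT replicate 3 alone 16 of the 17 were positive, with a median of 0.56, beside 65.6% and a median of 0.11 over all genes tested.

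Of 20 other activity-induced effectors, 17 had a positive log2 fold change at 4 months, 8 an unadjusted p under 0.05, and *Dusp6*, a phosphatase of ERK, was called at 1.06 (limma, adjusted p = 0.0663), next to its relative *Dusp1* at 1.92 (limma, adjusted p = 0.260). Against WT replicate 3 alone 16 of the 20 were positive, with a median of 0.27. At 19 months 9 of the 17 transcription factors and 7 of the 20 effectors had positive values, and 0 of either list were called, with 1 and 3 at an unadjusted p under 0.05. For the interaction, 15 of 17 and 18 of 20 had negative values and 0 were called, with 12 and 7 at an unadjusted p under 0.05.

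The partners of single members did not share one direction. Of 9 Homer relatives and binding partners, 8 had negative log2 fold changes at 4 months, 3 of them at an unadjusted p under 0.05, and 7 of 9 positive ones at 19 months. Against WT replicate 3 alone 6 of the 9 were negative. *Homer3*, another paralog named here after its values were seen, had 3320, 1856 and 254 normalized counts in WT and 293 to 342 in *Gde2*KO at 4 months, so its WT replicate 3 lay below all *Gde2*KO libraries. *Homer2* was at -0.72 ± 0.20 at 4 months (SE, limma, adjusted p = 0.463). Of the 6 pentraxin and AMPA receptor genes that go with *Nptx2*, 4 had negative values at 4 months, with *Gria1* at -0.96 ± 0.42 (SE, limma, adjusted p = 0.463), and 0 had an unadjusted p under 0.05. *Gria1*, an AMPA receptor subunit, had 37181, 33058 and 11011 normalized counts in WT and 14142, 11133 and 11676 in *Gde2*KO, so that its WT replicate 3 was the lowest of the 6 libraries, and 5 of the 6 genes were positive against that library alone. Of 10 genes of prostaglandin synthesis and reception, the pathway of *Ptgs2*, 9 had positive values and 0 an unadjusted p under 0.05. Of 11 activin ligands, receptors and inhibitors 7 were positive, with *Fstl3*, an activin antagonist, at 0.72 ± 0.27, the 1 gene of that list at an unadjusted p under 0.05. Of 8 genes of BDNF receptors, sorting and processing 3 were positive and 0 had an unadjusted p under 0.05. Against WT replicate 3 alone the positive genes of these 3 lists were 7 of 10, 9 of 11 and 3 of 8.

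Paralogs of the kinases and of *Gadd45b* were positive in 5 of 8 genes at 4 months, among them *Plk3* at 1.04 ± 0.26 and *Plk5* at 0.84 ± 0.35 (SE, limma, adjusted p = 0.463 for both). Of 21 upstream regulators 10 were positive and 11 negative, with *Mef2c*, a transcription factor of this response, at 1.59 ± 0.49 and *Camk2a*, the calcium-dependent kinase, at -0.54 ± 0.17 (SE, limma, adjusted p = 0.463 for both). *Mef2c* had 4143, 5496 and 18131 normalized counts in WT and 23075, 18624 and 26048 in *Gde2*KO, so that WT replicates 1 and 2 were far below the other 4 libraries and WT replicate 3 was close to the lowest *Gde2*KO library. Against WT replicate 3 alone *Mef2c* was at 0.30, *Plk3* at 0.45 and *Plk5* at 0.13, and 5 of 8 paralogs and 11 of 21 regulators were positive. At an unadjusted p under 0.05 there were 2 paralogs and 6 regulators. None of these 7 lists held a called gene at 4 or at 19 months.

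As a single pattern, the mean of the 10 members, each centred on its mean at that age, was -0.34, -0.57 and -0.13 in the 4-month WT libraries and 0.40, 0.17 and 0.47 in the 4-month *Gde2*KO libraries on the log2 scale. At 19 months it lay between -0.14 and 0.15 in all 6 libraries. Among 12959 genes with a mean of 100 or more normalized counts, the 10 outside the members with the smallest root mean square difference from this mean over the 12 libraries were *Slc37a1*, *Csrnp1*, *Ndfip2*, *Klf6*, *Rad9a*, *Slc30a4*, *Slc39a10*, *Btbd8*, *Tpd52* and *Tmem97*, at 0.10 to 0.12 on the log2 scale. The members themselves ranked from 774 (*Homer1*, 0.19) to 12507 (*Arc*, 0.61) by the same measure. All 10 members were above their 4-month mean in *Gde2*KO replicate 3, the library with the largest total (41229086 normalized counts where the other 5 of its age held 31917431 to 35949224).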

How the data were processed

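RNAseq libraries of mouse cortex (12, with 3 in each of 4 groups of genotype and age) were grouped by the sample labels. The authors pseudoaligned reads to GRCm38 with Kallisto and deposited 2 transcript tables of signal values scaled by Sleuth, normalized counts and TPM divided by a size factor for each library. The submitters' processing notes also name bcl2fastq 2.17, Trimmomatic 0.36 and STAR 2.5.2b. Versions of Kallisto and Sleuth are not given in the sources used here. For 19 months the columns have no replicate number, so A, B and C name them in column order.

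Normalized counts were summed by gene, leaving out 1673 transcripts with no gene (0.541% to 0.605% of a library's total). Estimated reads are a library's total divided by its commonest value above 0, taken as 1 read. Because 46.7% to 62.9% of genes came out at whole reads (within 0.01), no count model was used. limma 3.58.1 (R 4.3.3) with an intensity trend was fitted to log2(value + 0.5) of genes with 5 or more normalized counts in at least 47% of the libraries, at each age and, for the interaction and the age contrasts, over all 12 libraries. A call needed a p under 0.1 after Benjamini-Hochberg adjustment and a natural-log fold change above 0.5 (0.72 on the log2 scale), except that the interaction needed the p only. For transcript usage, diffSplice of limma took transcripts whose mean was at least 5, and a call also needed 1 share to differ by over 10 points. TPM gave shares and levels between genes. The tests were checked on simulated data. Positions come from GENCODE vM21 on GRCm38. Named genes are the members, *Gdpd5*, called genes and the 2 of smallest p in each list, and the 10 genes most like the mean of the members. A gene that this rule names is not reported here. The members, lists, markers and tests were chosen with earlier results of these data known. Replicates are separate samples by their labels. As alternatives the pseudocount, filter, scaling, variance model and threshold were changed, a replicate block was added and libraries were left out. Python 3.11.15, pandas 2.3.3, numpy 2.4.6, scipy 1.17.1 and matplotlib 3.10.9 were used.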

Additional observations from a re-analysis of the deposited data

How the results depend on the processing

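The number of members called by genotype at 4 months was 0 in all alternatives but 2: it was 7 with array weights (whose estimate did not reach its tolerance in every fit), and between 0 and 5 with 1 library left out, the 5 without WT replicate 3. For the interaction it was 7 with array weights, all lower, where 32.1% of all genes were called lower, and 0 to 5 with 1 library left out. For age in WT it was 4 with array weights and 2 without the libraries of low depth, where 2440 of 18817 genes were called. With 1 library left out it was 0 to 6, where 1525 to 3096 genes were called. For age in *Gde2*KO it was 2, where 2224 of 18731 genes were called, and 4 with array weights. With 1 library left out it was 0 to 2, where 1096 to 2851 genes were called. It was 1 with no filter on low values (2587 of 28222 genes called), with TMM scaling (1661 of 18731) and with TPM (1960 of 21056). It was also 1 without trend (2201 of 18731) and at an adjusted p under 0.05 alone (3982 of 18731). In that contrast 478 of 2224 called genes were higher at 19 months, and 726 of 1661 after TMM scaling. For transcript usage at 19 months it was 0, and 1 without the libraries of low depth, where 122 of 12140 genes were called in place of 21 of 12253. That member was *Npas4*, with an adjusted p of 0.0885 (diffSplice) and a share that differed by 10.7 points. Array weights called 2934, 8744, 4240 and 3328 genes in all by genotype at 4 months, in the interaction and by age in WT and *Gde2*KO. The cause of these differences was not tested. The numbers of the 4-month replicates do not pair animals by any label, and same-numbered libraries deviated together with r = 0.060, 0.0071 and -0.048 across genes. A replicate block left 0 members called at 4 months, and 21 genes in place of 24, so it changed no call of a member.

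The alternatives without WT replicates 1 and 2 and without the libraries of low depth were chosen after the data had been seen, as were the counts against WT replicate 3 alone and the transcript classes of *Homer1*. Without WT replicates 1 and 2 the log2 changes by genotype at 4 months turned to -0.018 for *Homer1*, 0.77 for *Ptgs2* and 0.55 for *Bdnf*. The interaction then turned to 0.010 for *Homer1*, -0.91 for *Ptgs2* and -0.67 for *Bdnf*. Age in WT turned to -0.075 for *Homer1*, 0.044 for *Plk2*, -0.21 for *Arc*, -0.020 for *Inhba*, -0.33 for *Npas4* and 0.37 for *Bdnf*. Without the libraries of low depth the genotype change at 19 months turned to 0.049 for *Homer1*, -0.29 for *Arc*, 0.25 for *Inhba* and 0.020 for *Nptx2*, and age in WT to 0.030 for *Gadd45b* and -0.012 for *Ptgs2*. With TMM scaling *Homer1* (0.0067) and *Sik1* (0.0046) turned at 19 months, *Plk2* in the interaction (0.10) and *Homer1* by age in *Gde2*KO (0.099). With TPM *Homer1* (0.029) and *Sik1* (0.056) turned at 19 months, *Plk2* in the interaction (0.039) and *Inhba* by age in *Gde2*KO (0.046). With array weights *Homer1* (0.084) and *Inhba* (0.15) turned at 19 months, and *Gadd45b* (0.11) and *Ptgs2* (-0.11) by age in WT.

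With 1 library left out, genotype at 4 months spanned -0.57 to 0.11 for *Bdnf*, -0.042 to 0.28 for *Plk2* and -0.72 to 0.23 for *Ptgs2*. At 19 months it spanned -0.15 to 0.62 for *Arc*, -0.23 to 0.11 for *Gadd45b*, -0.054 to 0.032 for *Homer1*, -0.24 to 0.12 for *Inhba*, -0.30 to 0.098 for *Npas4* and -0.33 to 0.21 for *Sik1*. The interaction spanned -0.23 to 0.45 for *Bdnf*, -0.18 to 0.14 for *Plk2* and -0.37 to 0.59 for *Ptgs2*. Age in WT spanned -0.32 to 0.030 for *Gadd45b* and -0.48 to 0.47 for *Ptgs2*, and age in *Gde2*KO -0.045 to 0.27 for *Ptgs2*. With 3 libraries in a group, and 1 read worth 8.29 normalized counts in *Gde2*KO library A, small changes of the rarer members at 19 months were not resolved.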
